A study of Mus musculus with 24 samples.

Results

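The comparison described here is of RAW-Blue macrophages given a CpG oligonucleotide on carbon nanotubes with RAW-Blue macrophages given the same oligonucleotide free in the medium. Its members are 4 of the 24 libraries of the study, 2 of the SWNT/CpG group and 2 of the CpG group, all from sequencing run 2. RAW-Blue is a mouse RAW macrophage line with a stably integrated secreted reporter for NF-kB and AP-1. SWNT/CpG cells received single-walled carbon nanotubes dispersed in CpG-28, with 10 µg/mL of nanotubes and 10 µg/mL of CpG-28. CpG cells received 10 µg/mL of CpG-28 alone. Both were treated for 47 to 50 h in a migration assay after 24 h of adhesion, and polyadenylated RNA was then sequenced.

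The other 3 RAW-Blue groups, with 2 libraries each, are used beside these. CpG+SWNT/LP cells received CpG-28 together with nanotubes dispersed in lipid-PEG, each ingredient at 10 µg/mL, so that oligonucleotide and nanotube were both present but not joined beforehand. SWNT/LP cells received the lipid-PEG nanotubes alone, and untreated cells received water. SWNT/CpG and CpG contain no lipid-PEG. No group received nanotubes coated with an oligonucleotide that lacks CpG. SWNT/CpG against CpG thus sets nanotube and oligonucleotide joined against the oligonucleotide alone, and effects of the nanotube and of the joining are not separated in it. The K-Luc glioma line, with 3 SWNT/CpG and 3 CpG libraries treated for 17 to 19 h, serves for a test of whether the difference depends on the line.

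Unmethylated CpG DNA is sensed by Toll-like receptor 9, which meets its ligand in endosomes. The receptor is brought there by the chaperone Unc93b1 and signals through the adaptor Myd88. In macrophages this pathway ends in NF-kB, AP-1 and interferon regulatory factors, which switch on cytokines, chemokines and interferon-stimulated genes, together with feedback genes that restrain the response.

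The RAW-Blue libraries hold 17.2 to 20.3 M counts, so that a gene at 1 CPM (its share of the library, scaled to counts per M) has 17 to 20 counts. All 10 macrophage markers were at 1 CPM or more in every RAW-Blue library. Their summed level was 5590 to 5640 CPM in SWNT/CpG libraries and 5470 to 5510 CPM in CpG libraries. Single markers differed in both directions beneath this sum. Itgam was at 1060 and 1010 CPM in SWNT/CpG libraries and 657 and 795 CPM in CpG libraries. Lyz2 was at 930 and 894 CPM in SWNT/CpG libraries and 1100 and 1020 CPM in CpG libraries. Of 10 glial and progenitor markers, 9 were under 1 CPM in all RAW-Blue libraries. The exception was the intermediate filament gene Nes, with 24.9 and 24.4 CPM in SWNT/CpG libraries and 15.6 and 16.3 CPM in CpG libraries. The untreated libraries stood apart: their median absolute difference was 0.23 on the log2 scale over 4573 well expressed genes, against 0.04 to 0.06 between the replicates of each other group. That difference followed gene length (Spearman's rho -0.42 across genes, which are not independent replicates), and its cause was not tested. All groups share 1 estimate of the spread, so counts of calls between the CpG-treated RAW-Blue groups and in the gene lists are also given from a fit without the untreated group, an alternative added after the data were seen.

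SWNT/CpG cells differed from CpG cells mainly by higher levels. Of 11514 tested genes, 77 rose and 20 fell in SWNT/CpG cells at an adjusted p under 0.05, which is 0.842% of all tested genes, 0.669% in the upward and 0.174% in the downward direction. At an unadjusted p under 0.05 there were 1478 genes. Among the called genes, 25 rose and 1 fell by more than 2-fold. The SWNT/CpG and CpG libraries did not overlap for any of the 97 called genes, and they did not overlap for 55.4% of all tested genes either. The median log2 fold change was 0.82 among the genes that rose, -0.53 among those that fell, and 0.0014 over all tested genes. Without the untreated group in the fit, 750 genes rose and 405 fell (6.54% and 3.53% of 11467, 10.1% in all), and all 97 genes were among them. Against untreated cells, SWNT/CpG gave 1472 rises and 1201 falls (12.8% and 10.4%, 23.2% in all), and CpG gave 596 rises and 645 falls (5.18% and 5.6%, 10.8% in all). With 2 libraries a group the calls also depend on each one: no gene was called without SWNT/CpG replicate 1, without CpG replicate 1 or without CpG replicate 2, and 47 genes were called without SWNT/CpG replicate 2.

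**Figure D1:**
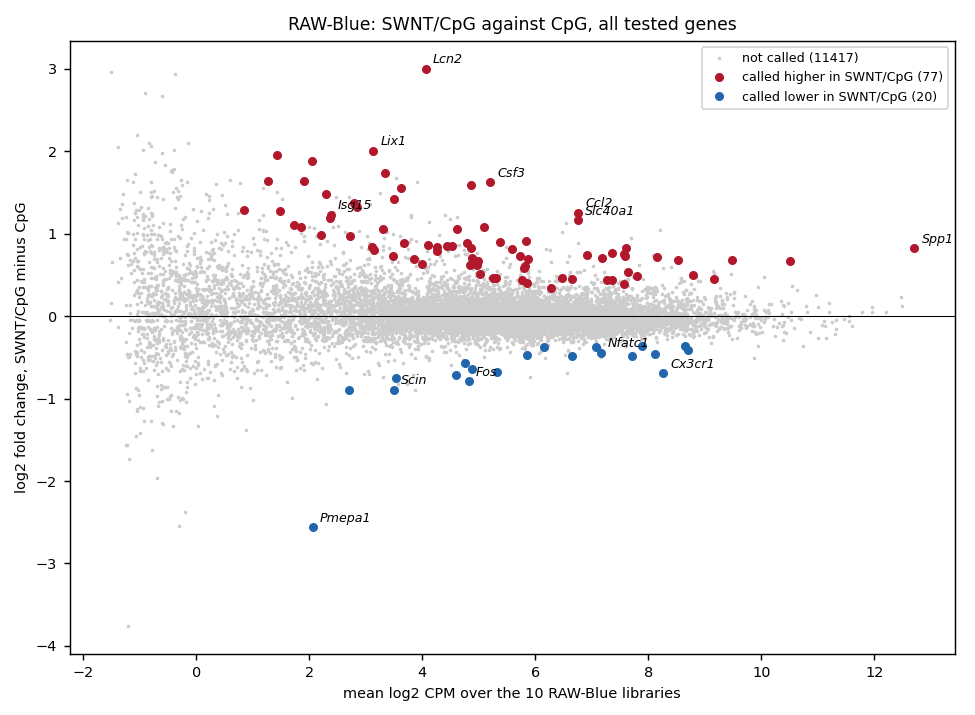
Log2 fold change of SWNT/CpG over CpG (vertical axis) against mean log2 CPM over the 10 RAW-Blue libraries (horizontal axis), 1 point per tested gene. Red points are the 77 genes called higher and blue points the 20 called lower in SWNT/CpG cells. Lcn2 lies at 3.00 and Pmepa1 at -2.56.

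The largest rise was in Lcn2, which encodes lipocalin 2, a secreted protein that withholds iron from bacteria by binding their siderophores. Lcn2 was at 84.9 and 44.2 CPM in SWNT/CpG libraries, against 5.19 and 10.9 CPM in CpG libraries and 0.228 and 0.158 CPM in untreated libraries (log2 fold change of SWNT/CpG over CpG 3.00 ± 0.38, SE, adjusted p = 0.0233). Both SWNT/CpG libraries were above both CpG libraries, and the replicates of each group lay apart from each other as well. Its call was lost in 5 of 10 alternatives, among them the one without the filter on low counts and the one with only the compared groups in the fit. The log2 fold change lay between 2.46 and 3.63 in the alternatives, and the adjusted p reached 0.235.

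The iron exporter Slc40a1, ferroportin, moved in a different way. It was at 175 and 138 CPM in SWNT/CpG libraries and 63.2 and 76.9 CPM in CpG libraries (1.16 ± 0.13, adjusted p = 0.0127), against 105 and 117 CPM in untreated libraries. Slc40a1 fell in CpG cells relative to untreated cells (-0.67 ± 0.13, adjusted p = 0.0118), and the level in SWNT/CpG cells was above all other groups. Of 23 tested iron handling genes these 2 rose and none fell, and 9 rose and none fell in the fit without untreated libraries. Over all tested genes 0.669% rose and 0.174% fell, and 6.54% and 3.53% without untreated libraries. These shares are the background for this and every later list. The heme-degrading Hmox1 (469 and 408 CPM in SWNT/CpG, 317 and 326 CPM in CpG, adjusted p = 0.0563) and the endosomal metal transporter Slc11a1 (178 and 165 CPM in SWNT/CpG, 136 and 131 CPM in CpG, adjusted p = 0.0886) did not pass in the shared fit.

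**Figure D2:**
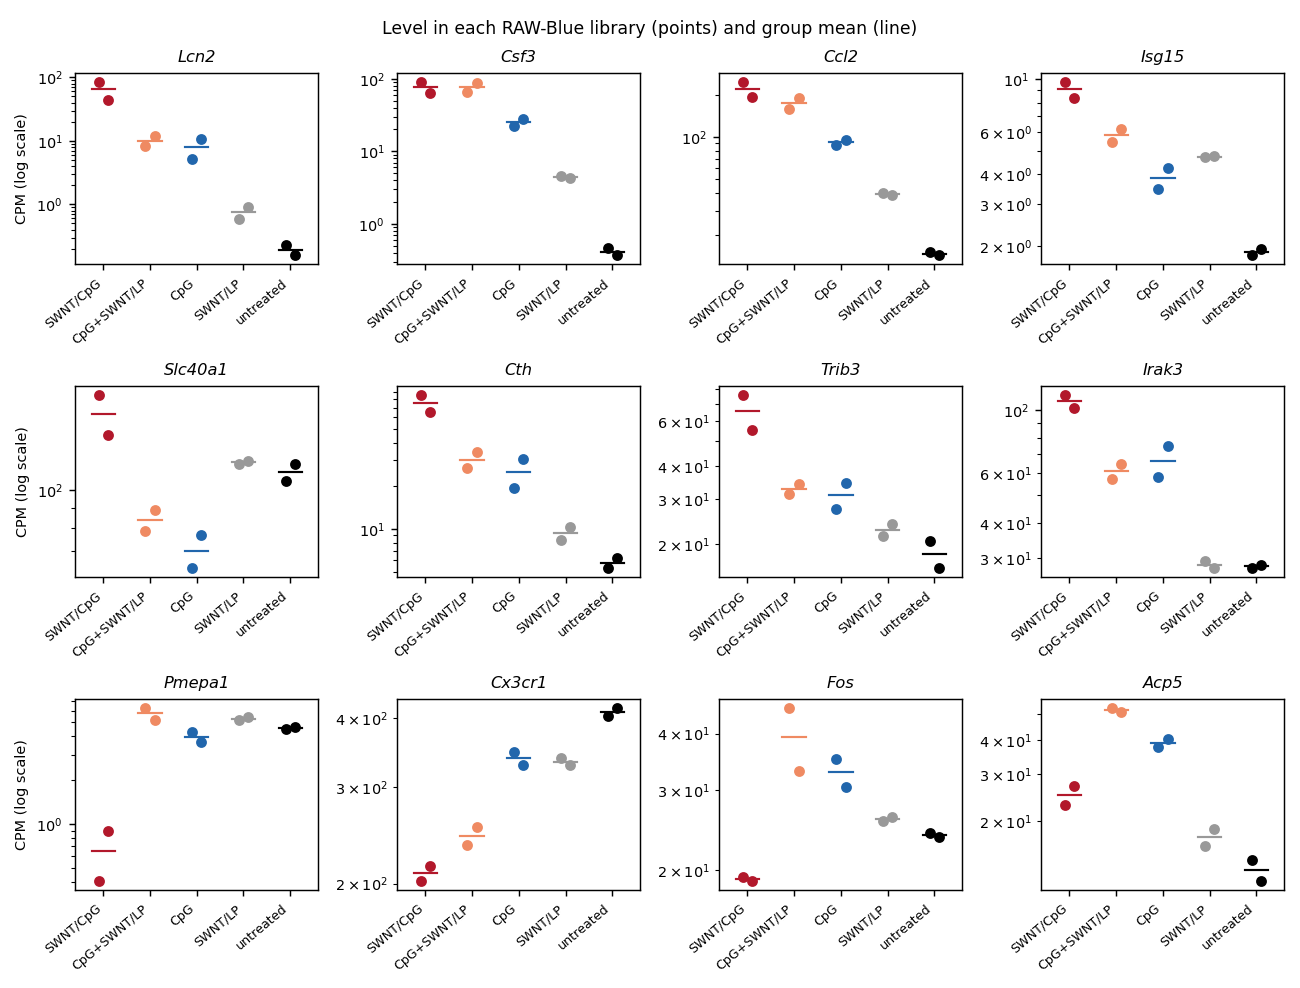
CPM on a log axis in each RAW-Blue library (points) with the group mean (line) for 12 genes, in the groups SWNT/CpG, CpG+SWNT/LP, CpG, SWNT/LP and untreated from left to right. Csf3 and Ccl2 lie close together in SWNT/CpG and CpG+SWNT/LP libraries, whereas Lcn2, Slc40a1, Cth and Trib3 are highest and Pmepa1 lowest in SWNT/CpG libraries.

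Several secreted immune signals rose. Csf3, which encodes the granulocyte growth factor G-CSF, was at 90.6 and 64.1 CPM in SWNT/CpG libraries, 22.4 and 27.8 CPM in CpG libraries and 0.456 and 0.368 CPM in untreated libraries (SWNT/CpG over CpG 1.62 ± 0.19, adjusted p = 0.0182). The monocyte chemoattractant Ccl2 was at 246 and 192 CPM in SWNT/CpG libraries and 88.0 and 95.4 CPM in CpG libraries (1.26 ± 0.12, adjusted p = 0.0127). The related Ccl7 was at 26.2 and 20.4 CPM in SWNT/CpG libraries and 9.44 and 7.92 CPM in CpG libraries (1.42 ± 0.20, adjusted p = 0.0233). In all 3 genes free CpG had already raised the level over untreated cells, by 5.91, 2.62 and 3.71 on the log2 scale for Csf3, Ccl2 and Ccl7.

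Of 19 tested chemokine and chemokine receptor genes, 6 rose and 1 fell, with a median log2 fold change of 0.51 against 0.0014 over all genes. Without untreated libraries 10 rose and 3 fell. The macrophage inflammatory chemokine Ccl4 was at 630 and 539 CPM in SWNT/CpG libraries and 368 and 358 CPM in CpG libraries (0.69 ± 0.10, adjusted p = 0.029). The other rises were in Ccl3, Ccl5 and the anaphylatoxin receptor C5ar1 (111 and 103 CPM in SWNT/CpG, 52.2 and 62.3 CPM in CpG, 0.91 ± 0.15, adjusted p = 0.0319). The one fall was in Cx3cr1, the fractalkine receptor of monocytes and resident macrophages, with 202 and 215 CPM in SWNT/CpG libraries and 347 and 329 CPM in CpG libraries (-0.69 ± 0.07, adjusted p = 0.0127). Cx3cr1 was highest in untreated libraries, at 404 and 418 CPM.

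Of 29 tested cytokine and growth factor genes 5 rose and none fell, and 8 rose and 1 fell without untreated libraries. Spp1, which encodes the matrix cytokine osteopontin, was at 11410 and 11190 CPM in SWNT/CpG libraries and 6073 and 6697 CPM in CpG libraries (0.82 ± 0.12, adjusted p = 0.0233). Per length, the authors' RPKM of Spp1 averaged 4154 in SWNT/CpG cells and 2342 in CpG cells, above that of Actb in both groups (1895 in SWNT/CpG and 1737 in CpG). Il1rn, the interleukin 1 receptor antagonist, was at 228 and 197 CPM in SWNT/CpG libraries and 135 and 116 CPM in CpG libraries (0.76 ± 0.10, adjusted p = 0.0205). Osm, a cytokine of the interleukin 6 family, was at 32.5 and 25.7 CPM in SWNT/CpG libraries and 17.6 and 15.1 CPM in CpG libraries (0.83 ± 0.15, adjusted p = 0.038).

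Several other inflammatory products did not pass the test in the shared fit. Tnf had 630 and 556 CPM in SWNT/CpG libraries and 478 and 471 CPM in CpG libraries (0.32 ± 0.08, adjusted p = 0.103), and it was called without untreated libraries. Nos2, the inducible nitric oxide synthase, had 157 and 144 CPM in SWNT/CpG libraries and 110 and 131 CPM in CpG libraries (0.32 ± 0.14, adjusted p = 0.383). Il6 did not pass the filter on low counts, with 18 and 7 counts in SWNT/CpG libraries and 2 and 4 counts in CpG libraries. Il12b had 1 count in 1 of the 4 libraries. Within arginine, itaconate and prostaglandin metabolism, 2 of 17 tested genes rose and none fell, and 6 rose and none fell without untreated libraries. The 2 genes were the mitochondrial arginase Arg2 (14.1 and 11.6 CPM in SWNT/CpG, 3.74 and 6.48 CPM in CpG, adjusted p = 0.0491) and the prostacyclin receptor Ptgir (83.0 and 74.5 CPM in SWNT/CpG, 41.0 and 48.1 CPM in CpG, adjusted p = 0.0166). Irg1, which makes itaconate, had 743 and 528 CPM in SWNT/CpG libraries and 264 and 351 CPM in CpG libraries (1.05 ± 0.20, adjusted p = 0.0616).

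Interferon-stimulated genes had the highest median of the 35 lists. All 49 tested members had a positive log2 fold change, from 0.01 to 1.88 with a median of 0.82, and the median lay between 0.575 and 0.935 in the alternatives. Of these, 6 passed the test and none fell, and 23 rose and none fell without untreated libraries, against backgrounds of 0.669% and 6.54%. Gbp7, a guanylate-binding GTPase, was at 10.2 and 9.30 CPM in SWNT/CpG libraries and 2.12 and 3.16 CPM in CpG libraries (1.88 ± 0.28, adjusted p = 0.029). Isg15, a ubiquitin-like modifier, was at 9.77 and 8.40 CPM in SWNT/CpG libraries and 3.46 and 4.26 CPM in CpG libraries (1.23 ± 0.16, adjusted p = 0.0182). Trim30a was at 40.2 and 37.9 CPM in SWNT/CpG libraries and 20.6 and 22.6 CPM in CpG libraries (0.86 ± 0.13, adjusted p = 0.0307). The nucleotide kinase Cmpk2 and the oligoadenylate synthetase family genes Oasl1 and Oas1a were the other rises. Gbp, Trim30, Oas and Pilr genes belong to families with similar copies, so reads may have been split among them in the authors' counting.

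Against untreated cells the median of the interferon list was 1.5 for SWNT/CpG and 0.65 for CpG, and it was -0.07 for CpG+SWNT/LP against CpG. SWNT/CpG against CpG+SWNT/LP gave a median of 0.78. These comparisons share libraries and are given side by side only. The cytosolic RNA sensor Ifih1 (46.5 and 39.6 CPM in SWNT/CpG, 22.2 and 25 CPM in CpG, adjusted p = 0.062) and the Z-nucleic acid sensor Zbp1 (2.95 and 2.30 CPM in SWNT/CpG, 1.00 and 1.11 CPM in CpG, adjusted p = 0.0753) were called in the fit without untreated libraries but not with them.

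Promoter windows from RefSeq (build GRCm38.p6, 250 bases before to 50 after the start) were at hand for 70 of the 97 called genes and 8860 of the tested genes. The authors mapped reads to another build, so these positions are those of the promoter table only. The core of the interferon-stimulated response element, searched on either strand as GAAA, any 2 bases and GAAA again, was found in 8 of 55 genes that rose (14.5%) and 0 of 15 that fell. It was found in 3.74% of all tested genes with a window and in 3.44% of 32851 windows. The 8 genes were Gbp7, Isg15, Oas1a, Trim30a, Tmem140, Pilra, Plk2 and Spp1, of which the first 4 are in the interferon list. No test was made, and a match is a description of letters and not of a bound site. The windows of 2 listed and 2 unlisted genes are shown to compare the match, with its letters in capitals, 5′ to 3′ on the strand of the gene. In Isg15 3 overlapping matches run together. The windows are chr4:156200855-156200916 on the minus strand for Isg15, chr3:142530263-142530312 on the plus strand for Gbp7, chr6:34863063-34863112 on the plus strand for Tmem140 and chr5:137836427-137836476 on the minus strand for Pilra. The matches begin at position -78 in Isg15, -53 in Gbp7, -63 in Tmem140 and -178 in Pilra, counted from the start of the gene.
Isg15: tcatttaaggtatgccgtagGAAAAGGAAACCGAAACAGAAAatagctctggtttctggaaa
Gbp7: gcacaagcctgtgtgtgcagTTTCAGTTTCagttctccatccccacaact
Tmem140: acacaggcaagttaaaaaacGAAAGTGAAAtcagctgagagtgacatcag
Pilra: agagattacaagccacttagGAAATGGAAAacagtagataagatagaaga

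Other motifs were searched on both strands of the same windows. The NF-kB consensus was in 4 of 55 genes that rose (7.27%), 2 of 15 that fell (13.3%) and 6.09% of all tested genes. The AP-1 site TGANTCA was likewise in 4 that rose and 2 that fell, and in 6.05% of tested genes. The antioxidant response element core TGACNNNGC was in 7 that rose (12.7%), 4 that fell (26.7%) and 17.2% of tested genes. The amino acid response element TGATGNAAN was in 3 that rose (5.45%), 0 that fell and 2.86% of tested genes. A palindromic SMAD site was in no called gene and in 0.271% of tested genes. The AP-1 site and the antioxidant core overlap in the promoter of Procr.

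The receptor, chaperone and adaptor genes of CpG sensing did not pass the test. Tlr9 was at 18.0 and 20.0 CPM in SWNT/CpG libraries and 21.8 and 22.4 CPM in CpG libraries (-0.21 ± 0.10, adjusted p = 0.404). Unc93b1 was at 290.5 and 269 CPM in SWNT/CpG libraries and 267 and 283 CPM in CpG libraries (0.03 ± 0.07, adjusted p = 0.932). Myd88 was at 81.7 and 88.8 CPM in SWNT/CpG libraries and 93.9 and 87.0 CPM in CpG libraries (-0.08 ± 0.13, adjusted p = 0.868). Of 42 tested sensing and signalling genes 5 rose and 3 fell without untreated libraries (11.9% and 7.14%, against 6.54% and 3.53% of all genes). In the shared fit 1 rose and 1 fell. The rise was in Irak3, a kinase homologue that damps Toll-like receptor signalling, with 114 and 101.5 CPM in SWNT/CpG libraries and 58.0 and 74.7 CPM in CpG libraries (0.70 ± 0.12, adjusted p = 0.0324). The fall was in Tlr2, a receptor for bacterial lipoproteins, with 105.5 and 110.0 CPM in SWNT/CpG libraries and 141 and 138 CPM in CpG libraries (-0.37 ± 0.06, adjusted p = 0.0367). Of 33 NF-kB subunit and feedback genes 1 rose, Tnfaip2 (283 and 234 CPM in SWNT/CpG, 177 and 181 CPM in CpG, adjusted p = 0.0368), and 4 rose and 1 fell without untreated libraries.

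**Figure D3:**
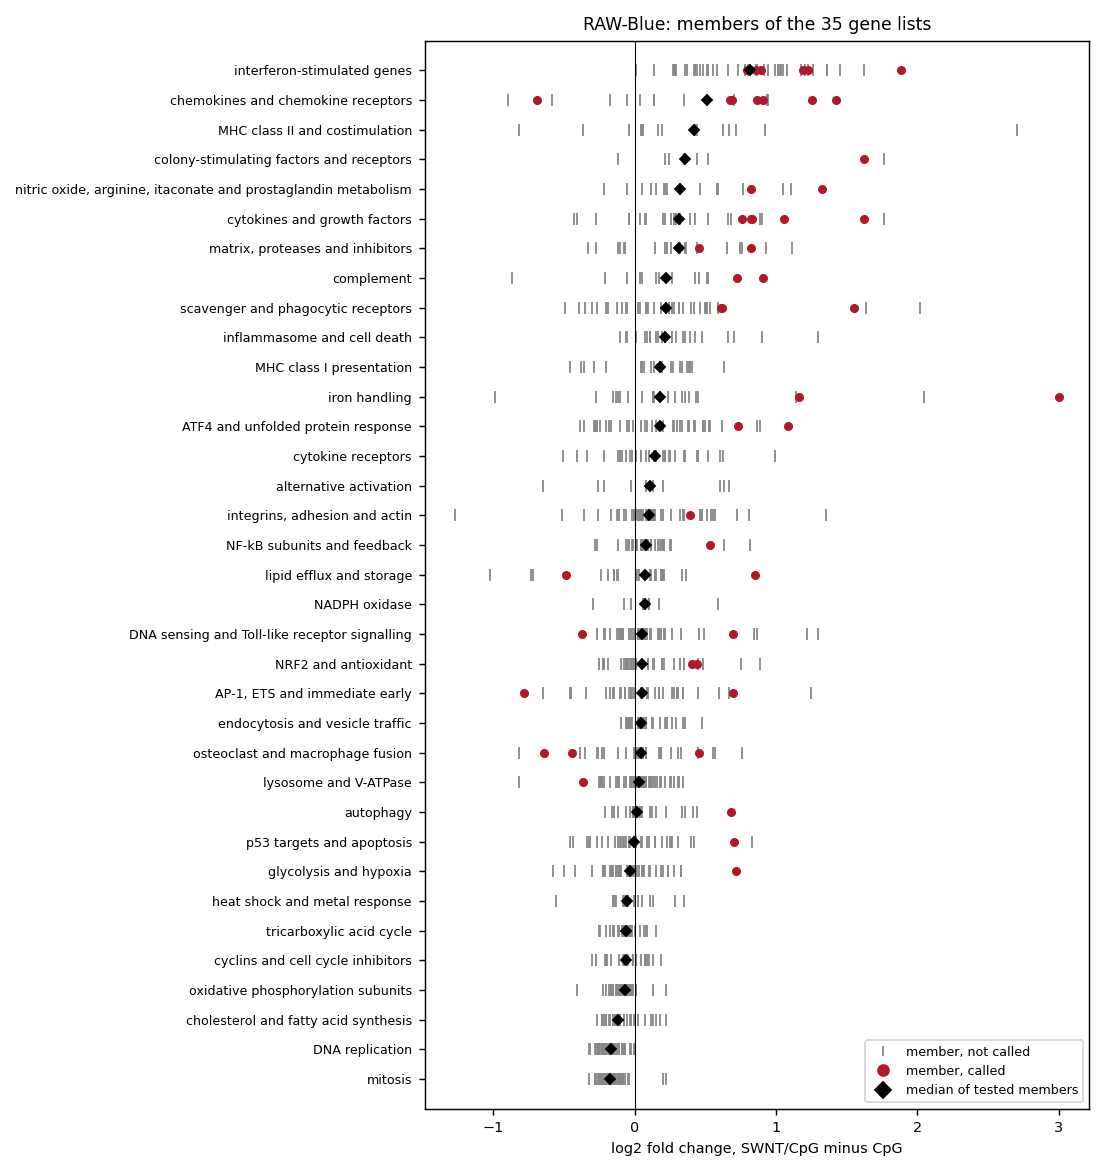
Log2 fold change of SWNT/CpG over CpG for every tested member of the 35 gene lists (rows), with called members as red circles, other members as grey ticks and the median as a black diamond. Interferon-stimulated genes have a median of 0.82 at the top, and DNA replication and mitosis have medians of -0.17 and -0.18 at the bottom.

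The enzyme genes Cth and Sqrdl were among the 15 largest rises. Cth, which makes cysteine from cystathionine, was at 86.2 and 64.9 CPM in SWNT/CpG libraries and 19.1 and 30.9 CPM in CpG libraries (1.60 ± 0.23, adjusted p = 0.0307). Sqrdl, a mitochondrial sulfide oxidoreductase, was at 15.4 and 8.55 CPM in SWNT/CpG libraries and 3.63 and 4.87 CPM in CpG libraries (1.48 ± 0.27, adjusted p = 0.0425). Cth and Sqrdl each kept their call in 5 of 10 alternatives. Both lost it with only the compared groups in the fit, and Cth also without the filter on low counts. The cystine importer Slc7a11 had 216 and 163 CPM in SWNT/CpG libraries and 94.3 and 110.4 CPM in CpG libraries (0.89 ± 0.18, adjusted p = 0.0753).

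The list of ATF4 and unfolded protein response genes had 2 rises of 40 tested and no fall. Trib3, a pseudokinase induced by ATF4, was at 75.8 and 55.2 CPM in SWNT/CpG libraries and 27.4 and 34.5 CPM in CpG libraries (1.08 ± 0.17, adjusted p = 0.0319). The transcription factor gene Atf5 was at 92.4 and 78.0 CPM in SWNT/CpG libraries and 46.8 and 55.8 CPM in CpG libraries (0.73 ± 0.13, adjusted p = 0.0367). Without untreated libraries the same list split into 16 rises and 11 falls. Beyond the 2 genes above, the rises included, chosen after their values were seen, the amino acid metabolism genes Asns (0.62), Psph (0.52) and Aars (0.43) and Atf4 itself (0.39). They also included the stress response genes Chac1 (0.86), Ern1 (0.53), Nupr1 (0.49), Ddit3 (0.48) and Cebpb (0.30), of which Ern1 encodes a sensor of the unfolded protein response. The falls, chosen in the same way, reached at most -0.39, in Creld2, and included Manf (-0.27). They also included the endoplasmic reticulum chaperone and disulfide isomerase genes Calr (-0.36), Pdia3 (-0.29), Pdia6 (-0.28) and Hsp90b1 (-0.27).

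Of 35 antioxidant genes 2 rose and none fell, and 10 rose and 2 fell without untreated libraries. The latter is 28.6% and 5.71%, against 6.54% and 3.53% of all genes. Catalase, Cat, was at 210.4 and 185 CPM in SWNT/CpG libraries and 146 and 146 CPM in CpG libraries (0.44 ± 0.08, adjusted p = 0.0368). Gclm, a subunit of the first enzyme of glutathione synthesis, was at 71.8 and 66.9 CPM in SWNT/CpG libraries and 53.1 and 51.9 CPM in CpG libraries (0.40 ± 0.07, adjusted p = 0.0425). Neither passed the test between CpG and untreated libraries (Cat -0.00 ± 0.08, adjusted p = 0.983, Gclm 0.04 ± 0.07, adjusted p = 0.79). The selective autophagy receptor Sqstm1 was at 1165 and 874 CPM in SWNT/CpG libraries and 625 and 647 CPM in CpG libraries (0.68 ± 0.13, adjusted p = 0.0494). It was the 1 gene called among 28 of autophagy. Without untreated libraries 2 of the 28 rose and 1 fell (7.14% and 3.57%), near the shares over all genes.

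Surface receptors for particles and immune complexes gave 3 rises and no fall among 39 tested genes, and 15 rises and 4 falls of 38 without untreated libraries. They were the inhibitory receptor Pilra (31.9 and 25.5 CPM in SWNT/CpG, 7.93 and 11.6 CPM in CpG, 1.55 ± 0.24, adjusted p = 0.0307), the Fc receptor Fcgr3 (72.0 and 63.7 CPM in SWNT/CpG, 43.0 and 45.8 CPM in CpG, adjusted p = 0.0307) and Cd300lf (44.2 and 38.1 CPM in SWNT/CpG, 24.7 and 28.9 CPM in CpG, adjusted p = 0.0494). Of 14 complement genes 4 rose and 1 fell without untreated libraries, and in the shared fit 2 rose, C5ar1 and Clu (320 and 297 CPM in SWNT/CpG, 174 and 200 CPM in CpG, adjusted p = 0.0307).

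Single rises came from 5 further lists. Of these, lipid efflux and AP-1 and immediate early genes also had 1 called fall each, in Pltp and Fos. Without untreated libraries these lists had 2 rises and 5 falls of 43 (glycolysis and hypoxia), 5 and 0 of 39 (p53 targets), 2 and 2 of 27 (lipid efflux), 9 and 2 of 39 (AP-1 and immediate early genes) and 13 and 3 of 55 (integrins and actin). In that order 4.65%, 12.8%, 7.41%, 23.1% and 23.6% rose, against 6.54% of all genes. Falls made up 11.6%, 0%, 7.41%, 5.13% and 5.45%, against 3.53% of all genes. The single rises were the hexokinase Hk3 (454 and 350 CPM in SWNT/CpG, 251 and 239 CPM in CpG, adjusted p = 0.0319), the polo-like kinase Plk2 (234 and 190.4 CPM in SWNT/CpG, 131 and 130.3 CPM in CpG, adjusted p = 0.0233), the fatty acid chaperone Fabp4 (41.6 and 37.3 CPM in SWNT/CpG, 23.6 and 20.2 CPM in CpG, adjusted p = 0.0307), the MAP kinase phosphatase Dusp5 (21.3 and 19.5 CPM in SWNT/CpG, 13.1 and 12.1 CPM in CpG, adjusted p = 0.0336) and the integrin subunit Itgb7 (231 and 216 CPM in SWNT/CpG, 167 and 173 CPM in CpG, adjusted p = 0.049). Other large rises belonged to no list. Lix1 was at 27.2 and 27.8 CPM in SWNT/CpG libraries and 4.58 and 9.08 CPM in CpG libraries (2.01 ± 0.34, adjusted p = 0.0422). Its call was kept in 5 of 10 alternatives and lost without the filter on low counts, among others. Wfdc17, a gene of the whey acidic protein domain family, was at 10.1 and 5.2 CPM in SWNT/CpG libraries and 1.79 and 2.10 CPM in CpG libraries (1.96 ± 0.34, adjusted p = 0.035). The tyrosine phosphatase Ptpn14 (1.73 ± 0.21, adjusted p = 0.0146), the uric acid pathway gene Urah (1.64 ± 0.29, adjusted p = 0.0374) and the membrane glycoprotein podoplanin, Pdpn (1.64 ± 0.18, adjusted p = 0.0127), rose as well, as did Angptl6 (1.37 ± 0.23) and Tmem140 (1.28 ± 0.21). The rule that named these unlisted genes required that their SWNT/CpG and CpG libraries not overlap, as in 55.4% of all tested genes.

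The largest fall was in Pmepa1, a TGF-beta induced gene whose protein restrains TGF-beta signalling. It was at 0.405 and 0.900 CPM in SWNT/CpG libraries and 4.30 and 3.66 CPM in CpG libraries (-2.56 ± 0.29, adjusted p = 0.0127). Every other RAW-Blue library lay between 3.66 and 6.32 CPM, and CpG against untreated did not pass the test (-0.21 ± 0.21, adjusted p = 0.557). SWNT/CpG was thus the group in which Pmepa1 was low.

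Osteoclast genes gave 1 rise and 2 falls among 30 tested. Acp5, the tartrate-resistant phosphatase of osteoclasts, was at 23.1 and 26.9 CPM in SWNT/CpG libraries and 37.9 and 40.3 CPM in CpG libraries (-0.64 ± 0.12, adjusted p = 0.0397). Nfatc1, the transcription factor that directs osteoclast formation, was at 102 and 110.4 CPM in SWNT/CpG libraries and 147 and 142 CPM in CpG libraries (-0.44 ± 0.07, adjusted p = 0.0319). The rise was in the metalloprotease gene Adam8 (797 and 722 CPM in SWNT/CpG, 552 and 556 CPM in CpG, adjusted p = 0.0322), and without untreated libraries 7 of the 30 rose and 5 fell. The immediate early gene Fos was at 19.2 and 18.9 CPM in SWNT/CpG libraries and 35.2 and 30.5 CPM in CpG libraries (-0.79 ± 0.14, adjusted p = 0.0418).

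Several falls were in genes that free CpG had raised. Scin, an actin-severing protein gene, was at 10.5 and 11.2 CPM in SWNT/CpG libraries, 17.6 and 22.6 CPM in CpG libraries and 1.71 and 1.58 CPM in untreated libraries (SWNT/CpG over CpG -0.89 ± 0.14, adjusted p = 0.0307). The serotonin transporter Slc6a4 was at 23.9 and 28.0 CPM in SWNT/CpG libraries, 40.4 and 44.8 CPM in CpG libraries and 1.88 and 1.47 CPM in untreated libraries (-0.71 ± 0.11, adjusted p = 0.0307). Both stayed well above untreated cells. The gap junction gene Gja1 followed the same order (-0.75 ± 0.12, adjusted p = 0.0319). Its level in SWNT/CpG cells did not pass against untreated cells (0.20 ± 0.13, adjusted p = 0.301). In others CpG had lowered the level and SWNT/CpG was lower still, as in the phospholipid transfer protein Pltp (-0.48 ± 0.08), the immune checkpoint ligand Cd276 (-0.48 ± 0.08), the endolysosomal channel Tpcn1 (-0.45 ± 0.08) and the deubiquitinase Usp2 (-0.57 ± 0.11). Ms4a6c (-0.90 ± 0.17), the B cell and macrophage receptor Cd72 (-0.49 ± 0.07) and the serine protease inhibitor Serpinb8 (-0.68 ± 0.12) completed the 15 largest falls.

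Proliferation genes gave no call in either direction, with medians of -0.18 over 49 mitosis genes, of which 2 were positive, and -0.17 over 50 DNA replication genes, of which 1 was positive. In the alternatives the medians ranged from -0.25 to -0.11 and from -0.23 to -0.11. The cyclin gene Ccna2 had 184 and 210 CPM in SWNT/CpG libraries and 254 and 238 CPM in CpG libraries (-0.32 ± 0.09, adjusted p = 0.124). The replicative helicase gene Mcm4 had 207 and 220 CPM in SWNT/CpG libraries and 253 and 239.9 CPM in CpG libraries (-0.21 ± 0.07, adjusted p = 0.218). Without untreated libraries 1 mitosis gene rose and 15 fell, and no replication gene rose and 14 fell, against 3.53% of all genes falling. CPM is a share of a library, so a smaller number of dividing cells and less of each transcript per cell cannot be told apart. Lists with no call in the shared fit also include NADPH oxidase (9 tested), oxidative phosphorylation (49), the tricarboxylic acid cycle (26), cholesterol and fatty acid synthesis (33), MHC class I presentation (21) and MHC class II and costimulation (17). Without untreated libraries, MHC class I had 7 rises and 3 falls, MHC class II and costimulation 4 rises and 1 fall of 16, oxidative phosphorylation 1 rise and 2 falls, the tricarboxylic acid cycle 3 falls, cholesterol and fatty acid synthesis 7 falls and NADPH oxidase no call.

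The 38 called genes outside the naming rule comprised 35 rises, from 0.34 to 1.29, and 3 falls, from -0.41 to -0.37. Among them, chosen after their values were seen, were the steroidogenic enzyme Cyp11a1 (1.10), the MAP kinase phosphatase Dusp10 (1.08), the growth factor Hbegf (1.06), the activated protein C receptor Procr (0.89), the guidance receptor Nrp1 (0.82) and Gpr183, an oxysterol receptor (-0.38).

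CpG+SWNT/LP cells show what the same oligonucleotide and nanotubes do when given side by side, with lipid-PEG as a further ingredient. CpG+SWNT/LP against CpG gave 14 rises and 1 fall (0.122% and 0.00869% of 11514, 0.13% in all), and SWNT/CpG against CpG+SWNT/LP gave 54 rises and 41 falls (0.469% and 0.356%, 0.825% in all). Without untreated libraries these became 272 and 58, and 761 and 567. Csf3 was at 64.9 and 87.1 CPM in CpG+SWNT/LP libraries, which overlapped the SWNT/CpG libraries (SWNT/CpG over CpG+SWNT/LP 0.02 ± 0.18, adjusted p = 0.979). Pdpn (0.08 ± 0.16, adjusted p = 0.899), Ccl7 (0.14 ± 0.19, adjusted p = 0.821) and Ccl2 (0.33 ± 0.12, adjusted p = 0.252) likewise did not pass between joined and unjoined nanotubes. Il1rn was at 258 and 282 CPM in CpG+SWNT/LP libraries, above both SWNT/CpG libraries (-0.35 ± 0.10, adjusted p = 0.15). Tlr2, the 1 called fall of CpG+SWNT/LP against CpG (-0.43 ± 0.06, adjusted p = 0.0486), was at 105 and 102 CPM in CpG+SWNT/LP libraries. It did not pass between joined and unjoined nanotubes (0.06 ± 0.06, adjusted p = 0.772). Nor did Ms4a6c (-0.08 ± 0.18, adjusted p = 0.913), at 4.69 and 5.06 CPM in CpG+SWNT/LP libraries.

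A further set was high or low in SWNT/CpG cells against the unjoined mixture as well. Both tests use the same SWNT/CpG libraries, so this is not independent support for the differences from CpG. Lcn2, Wfdc17, Lix1, Sqrdl and Gbp7 were also picked for their size in this test. So were Pmepa1, Cxcr4, Atp6v0d2 and Cd83, given further below. Lcn2 had 8.35 and 11.9 CPM in CpG+SWNT/LP libraries, near its level in CpG libraries (SWNT/CpG over CpG+SWNT/LP 2.66 ± 0.37, adjusted p = 0.026). Slc40a1 had 78.8 and 88.8 CPM in CpG+SWNT/LP libraries (0.90 ± 0.13, adjusted p = 0.0249). Wfdc17 (2.26 ± 0.35, adjusted p = 0.0268), Lix1 (2.19 ± 0.35, adjusted p = 0.0417), Sqrdl (1.64 ± 0.27, adjusted p = 0.039), Gbp7 (1.44 ± 0.27, adjusted p = 0.0445), Cth (1.31 ± 0.23, adjusted p = 0.0445) and Trib3 (1.00 ± 0.17, adjusted p = 0.0441) also rose against it. Irak3 had 57.2 and 64.5 CPM in CpG+SWNT/LP libraries (0.82 ± 0.12, adjusted p = 0.025).

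For several genes the estimate of the fall was larger in this test than against free CpG. The difference between the 2 estimates is CpG+SWNT/LP over CpG. In the shared fit it did not pass for Pmepa1 (0.53 ± 0.21, adjusted p = 0.631), Acp5 (0.41 ± 0.11, adjusted p = 0.355) or Nfatc1 (0.24 ± 0.07, adjusted p = 0.44). Pmepa1 was at 6.32 and 5.21 CPM in CpG+SWNT/LP libraries (-3.10 ± 0.28, adjusted p = 0.00722), Acp5 at 52.8 and 50.8 CPM (-1.05 ± 0.11, adjusted p = 0.00917) and Nfatc1 at 177 and 166 CPM (-0.69 ± 0.07, adjusted p = 0.00917). The chemokine receptor Cxcr4 had 4.91 and 3.30 CPM in SWNT/CpG libraries, 14.1 and 12.5 CPM in CpG+SWNT/LP libraries and 8.55 and 6.59 CPM in CpG libraries. It fell against CpG+SWNT/LP (-1.70 ± 0.18, adjusted p = 0.00917) and did not pass against CpG in the shared fit (-0.89 ± 0.20, adjusted p = 0.0753). The osteoclast proton pump subunit Atp6v0d2 (-1.49 ± 0.26, adjusted p = 0.0445) and the activation marker Cd83 (-1.31 ± 0.17, adjusted p = 0.0233) fell against CpG+SWNT/LP in the same way. In the fit without untreated libraries, Cxcr4 (-0.90, adjusted p = 0.0074) and Cd83 (-0.82, adjusted p = 0.00577) were called lower against CpG as well. Among the 3 groups given CpG, the osteoclast genes Acp5 and Nfatc1 were lowest in SWNT/CpG, intermediate in CpG and highest in CpG+SWNT/LP libraries. The step from CpG to CpG+SWNT/LP did not pass for either gene, as given above. Acp5 was lower still in untreated libraries, at 14.3 and 12.0 CPM.

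**Figure D4:**
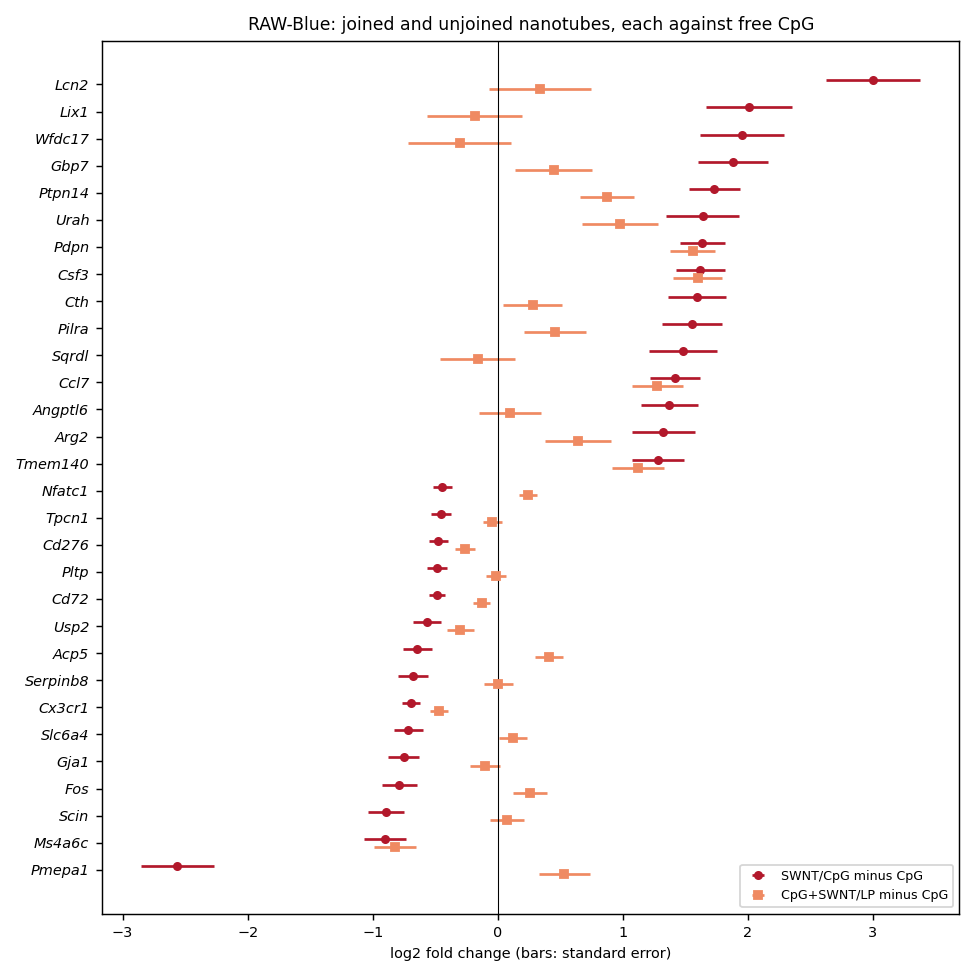
Log2 fold change with standard error for the 15 largest rises and 15 largest falls of SWNT/CpG over CpG (red circles), with CpG+SWNT/LP over CpG beside it (orange squares). Both share the CpG libraries. Csf3, Pdpn, Ccl7 and Tmem140 lie close together in both, whereas Lcn2 is at 3.00 and 0.34 and Pmepa1 at -2.56 and 0.53.

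Over the 500 most variable genes the RAW-Blue libraries lay in the order SWNT/CpG, CpG+SWNT/LP, CpG, SWNT/LP and untreated on the first principal component, which held 67.2% of the variance. The positions were 20.1 and 18.1 for SWNT/CpG, 8.20 and 12.4 for CpG+SWNT/LP, 3.39 and 8.26 for CpG, -12.5 and -11.0 for SWNT/LP, and -24.2 and -22.7 for untreated libraries. Only the CpG+SWNT/LP and CpG libraries overlapped, by 8.20 against 8.26.

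The same contrast in K-Luc glioma cells differed from that in RAW-Blue cells for 350 of 13350 genes in a fit of both lines (2.62%), 234 of them more positive (1.75%) and 116 more negative (0.869%) in RAW-Blue cells. Pmepa1 changed by -2.55 ± 0.29 in RAW-Blue and by 1.28 ± 0.08 in K-Luc cells (difference -3.83 ± 0.29, adjusted p = 3.82e-08). Tlr2 changed by -0.36 ± 0.08 in RAW-Blue and by 1.2 ± 0.07 in K-Luc cells (difference -1.56 ± 0.11, adjusted p = 6.95e-09). Pdpn changed by 1.65 ± 0.13 in RAW-Blue and by 0.15 ± 0.06 in K-Luc cells (difference 1.5 ± 0.15, adjusted p = 2.24e-06). Treatment time and plating also differ between the lines and cannot be told apart from the cell type.

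**Figure D5:**
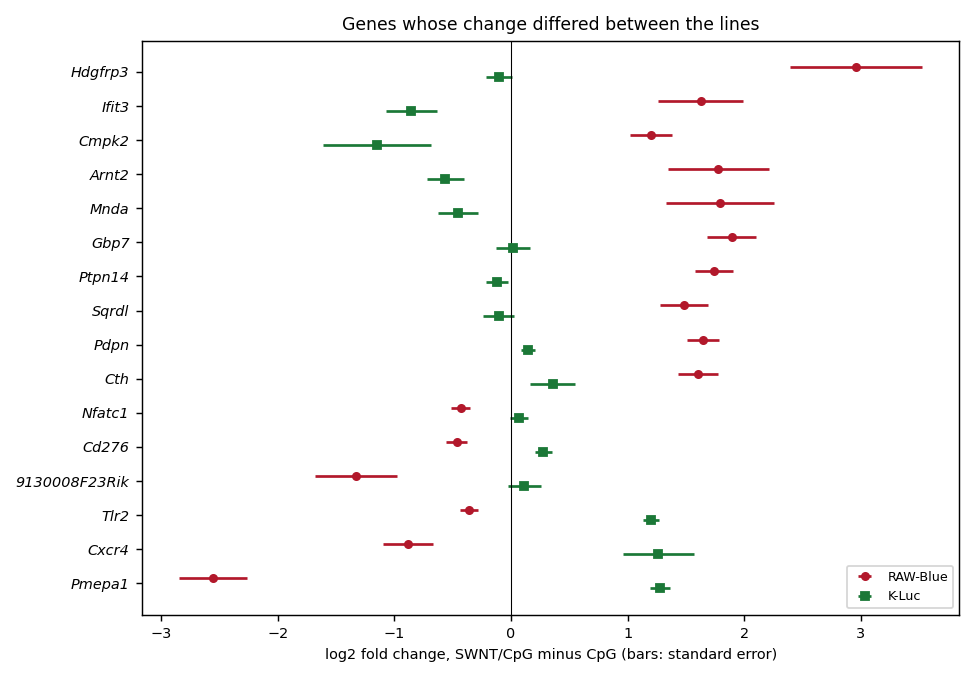
Log2 fold change of SWNT/CpG over CpG with standard error in RAW-Blue (red circles) and K-Luc (green squares) cells, from a fit of both lines, for 16 named genes whose change differed. Pmepa1 is at -2.55 in RAW-Blue and 1.28 in K-Luc, and Gbp7 at 1.89 in RAW-Blue and 0.02 in K-Luc.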

How the data were processed

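The data are read counts per gene from polyadenylated RNA, made with a stranded library kit per the labels. TopHat2 2.0.14, HTSeq 0.6.0 and the mouse build mm9 are named in the submitters' processing notes. Which annotation, strand setting or filter the authors applied is not stated in what was used here. The authors' deposited raw counts cover 21669 genes, and each column was matched to a sample by its title. The authors' deposited RPKM values served to set levels of different genes side by side and to give gene length.

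The test was the quasi-likelihood F test of edgeR 4.0.16 in R 4.3.3, with robust dispersion and TMM, after filterByExpr at a count of at least 10 and a total of at least 15. Adjusted p-values are Benjamini-Hochberg values over every tested gene of a fit, and a gene below 0.05 is called. One fit by group held the 10 RAW-Blue libraries (5 residual degrees of freedom, biological coefficient of variation 0.0859, and 0.0427 when the untreated group was left out). Another held all 24 libraries by group and run. SE is the fold change divided by the root of F. CPM use TMM-scaled totals. Counting error at 1 CPM is 22.2% to 24.1% and covers counting only. Replicates may be separate cultures or not, which the labels leave unsaid, so p-values measure a spread that may be technical. The steps were tested on simulated data.

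The comparison, the 35 lists and the naming rule were chosen with earlier results of these data known. The rule took the 15 largest rises and falls among called genes of mean log2 CPM 1 or more whose groups did not overlap, then the 5 largest of each sign against CpG+SWNT/LP and between the lines. It added, by smallest adjusted p, up to 4 members per list. Named whatever their values were Tlr9, Unc93b1, Myd88, Actb, Tnf, Nos2, Il6 and Il12b. Alternatives used DESeq2 1.42.0, DESeq2 size factors, no filter, a block for replicate number, the compared groups alone, run 2 alone, a fit lacking the run term, and fits with 1 library removed. Results for a few named genes are not reported here. Leaving out the untreated group was chosen after seeing the data.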

Additional observations from a re-analysis of the deposited data

Results flagged for a closer look

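The response to SWNT/CpG over CpG differed between RAW-Blue and K-Luc cells in the 16 genes below, by the test of the difference itself. It was run in edgeR, with both lines in 1 fit and 2 RAW-Blue and 3 K-Luc libraries in each group. The 16 were taken from the 15 largest rises and falls and the 5 largest differences of each sign, the last chosen by this test. Other named genes passed too, such as Isg15 (1.56, adjusted p = 3.88e-05) and Gclm (0.74, adjusted p = 3.84e-05). Over all tested genes 2.62% passed. Values are differences on the log2 scale, RAW-Blue minus K-Luc. Treatment time and plating differ between the lines too and cannot be told apart from cell type.

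More positive in RAW-Blue cells were Hdgfrp3 (3.07, adjusted p = 0.00471), Ifit3 (2.48, adjusted p = 0.00163), Cmpk2 (2.35, adjusted p = 0.00916), Arnt2 (2.34, adjusted p = 0.00532), Mnda (2.25, adjusted p = 0.0127), Gbp7 (1.88, adjusted p = 0.000173), Ptpn14 (1.86, adjusted p = 4.51e-06), Sqrdl (1.59, adjusted p = 0.000717), Pdpn (1.5, adjusted p = 2.24e-06) and Cth (1.25, adjusted p = 0.0102). Hdgfrp3 had 12 and 54 counts in SWNT/CpG and 4 and 4 counts in CpG libraries of RAW-Blue cells, so that its value rests on few counts and mostly on 1 library, and it was not called in the RAW-Blue fit (adjusted p = 0.115). Ifit3, Arnt2 and Mnda were not called there either (adjusted p = 0.079, 0.0978 and 0.208). In the fit of both lines, the RAW-Blue changes of Hdgfrp3, Ifit3, Arnt2 and Mnda had adjusted p-values of 0.00345, 0.0099, 0.0189 and 0.028. Arnt2 and Mnda also rest on few counts, with 30 and 27, and 21 and 26, in the SWNT/CpG libraries of RAW-Blue cells. The interferon-stimulated genes Ifit3 and Cmpk2 had log2 fold changes of 1.63 and 1.2 in RAW-Blue cells and -0.86 and -1.15 in K-Luc cells. Within K-Luc cells the fall passed for Ifit3 (-0.86 ± 0.22, adjusted p = 0.01285) and did not pass for Cmpk2 (-1.15 ± 0.46, adjusted p = 0.152).

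More negative in RAW-Blue cells were Pmepa1 (-3.83, adjusted p = 3.82e-08), Cxcr4 (-2.15, adjusted p = 0.00184), Tlr2 (-1.56, adjusted p = 6.95e-09), 9130008F23Rik (-1.44, adjusted p = 0.0395), Cd276 (-0.74, adjusted p = 0.00079) and Nfatc1 (-0.50, adjusted p = 0.0164). The chemokine receptor gene Cxcr4 had a log2 fold change of -0.88 in RAW-Blue cells and 1.26 in K-Luc cells.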

How the results depend on the processing

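No called gene named here changed direction in any alternative run, while Unc93b1, which was not called, turned slightly negative without SWNT/CpG replicate 1 or CpG replicate 1 (-0.03 and -0.02). The number of calls moved widely. SWNT/CpG against CpG (97 calls) gave 238 with DESeq2, 94 with its size factors, 240 without the filter, 923 with only the compared groups and 1155 without the untreated group. SWNT/CpG against CpG+SWNT/LP (95) gave 248, 92, 249, 832 and 1328 in the same order. CpG+SWNT/LP against CpG (15) gave 45 with DESeq2, 50 without the filter, 176 with only the compared groups and 330 without the untreated group. With only the compared groups, CpG against untreated (1241) gave 125 (82 rises and 43 falls, against 596 and 645) and SWNT/CpG against untreated (2673) gave 899. With DESeq2, CpG against untreated gave 604 rises and 552 falls. The difference between the lines (350) gave 206 in run 2 alone, 267 without the run term and 515 with only the compared groups. Beyond fewer groups or libraries in a fit, the cause was not tested.

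With each library left out, the counts ranged from 0 to 47 for SWNT/CpG against CpG, 2 to 17 against CpG+SWNT/LP, 0 to 3 for CpG+SWNT/LP against CpG, 357 to 5186 for CpG against untreated, 1211 to 5951 for SWNT/CpG against untreated and 102 to 290 between the lines. Rises no longer outnumbered falls against CpG+SWNT/LP without SWNT/CpG replicate 1 or CpG+SWNT/LP replicate 1 (0 and 2 in both) or without CpG+SWNT/LP replicate 2 (8 and 9). Such a fit assumes that the lone library varies like the other groups.

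The samples share only a replicate number: r of replicate deviations was -0.0191 between SWNT/CpG and CpG, 0.0626 between SWNT/CpG and CpG+SWNT/LP, 0.181 between CpG+SWNT/LP and CpG, and -0.099 to 0.181 over all pairs of groups. With the replicate block the counts were 107 for SWNT/CpG against CpG, 115 against CpG+SWNT/LP, 2 for CpG+SWNT/LP against CpG, 1159 for CpG against untreated, 2548 for SWNT/CpG against untreated and 413 between the lines. For SWNT/CpG against CpG 79 of the 97 genes were still called with the block. Among named genes Sqrdl, Arg2, Usp2, Trib3, Cd300lf and Itgb7 were not, with adjusted p-values of 0.0509 to 0.0658. Genes near 1 CPM rest on 17 to 20 counts, so small changes there were not detectable at this depth.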
